A study of Homo sapiens with 19 samples.

Results

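The genes examined here are 9 genes that build fatty acids and store them as triglyceride: ACLY, ACACA, FASN, ELOVL6, SCD, LPIN1, DGAT1, DGAT2 and PLIN2. They were chosen by name, as the probes whose RefSeq transcript maps to one of these symbols, among 20503 genes named on the array. All 9 genes had a probe (12 probes in all), and each of the 9 passed the detection filter with 19 of 19 arrays well above background. The samples were KhES-3 cells, a line of human embryonic stem cells (hESCs), harvested once at each of 19 times, the earliest 3 h and the latest 72 h into their differentiation towards brown adipocytes (BAs). Every sample was kept in a serum-free BA medium in low-attachment dishes. This medium held bovine serum albumin, synthetic lipids, insulin-transferrin-selenium, ascorbic acid-2-phosphate and 6 cytokines (IGF-II, BMP4, VEGFA, KITLG, FLT3LG and IL-6), so that added lipid and insulin were common to all samples. The labels place the cells before induction on irradiated mouse embryonic fibroblast feeders, whereas the study's methods describe feeder-free hESCs. No 0 h sample, undifferentiated sample or replicate was analysed here, and KhES-3 is 1 line.

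Fatty acid synthesis starts in the cytosol, where ACLY splits citrate into acetyl-CoA, ACACA carboxylates acetyl-CoA to malonyl-CoA, and FASN joins these units into palmitate. ELOVL6 lengthens palmitate to stearate, and SCD puts a double bond into these saturated chains. The fatty acids are then put onto a glycerol backbone: LPIN1 removes the phosphate from phosphatidic acid to give diacylglycerol, DGAT1 and DGAT2 add the last acyl chain to give triglyceride, and PLIN2 coats the lipid droplets in which triglyceride is held. In brown fat these droplets are many and small and fuel the production of heat, and the enzymes of the first steps are textbook targets of the transcription factors SREBP-1c, encoded by SREBF1, and ChREBP, encoded by MLXIPL.

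The RNA was labelled with Cy3 and hybridised to 1-colour arrays of 62976 spots. Signals are given as intensities at a common 75th percentile of 871; before scaling, this percentile lay between 655 and 1003 and between 49.5% and 64.7% of the probes were well above background. Probes differ in brightness for reasons other than RNA abundance, so levels are compared across times for each gene and not between genes. The arrays were spread over 3 slides in order of time, with 6 arrays (3 to 12 h) on the first slide, 8 (14 to 42 h) on the second and 5 (48 to 72 h) on the third, which was scanned on a later day. Between slides, time and slide cannot be told apart. In these bulk samples, fewer cells of a type and less RNA per cell cannot be told apart either. The markers of the labelled cell type were present: all 8 pluripotent stem cell markers passed the filter and were tested. Of these, 5 fell (POU5F1 by 0.32, DNMT3B by 0.84, ZFP42 by 0.84, TDGF1 by 0.63 and LIN28A by 0.29 on the log2 scale from 3 to 6 h to 60 to 72 h, LIN28A turning to a slope of 0.0007 with normexp) and none rose, where 29.8% of all genes fell. With the slide as a block DNMT3B was the 1 marker still called, and with normexp 3 fell and 1, NANOG, rose. The summed signal of these markers was 756578 to 844422 on the first slide, 618849 to 714127 on the second and 631463 to 657555 on the third. Of 10 adipocyte markers, ADIPOQ and FABP4 were well above background on 0 arrays, PLIN1 on 1, and UCP1, CIDEA and RETN on 8 each, whereas PRDM16 was so on 13, LEP on 17, DIO2 on 18 and PPARGC1A on 19 arrays. Of the 7 tested, PPARGC1A fell and none rose, and the summed signal of the 10 markers was 403 to 449, 444 to 650 and 315 to 488 on the 3 slides in order. Of the 10 fibroblast markers, FAP was well above background on 0 arrays, COL3A1 and LUM on 1 each, POSTN on 2 and DCN on 9. Of the 6 tested, COL1A2 and S100A4 rose (with slopes of -0.0021 and -0.0038 under spike-in scaling, and S100A4 at -0.0006 under array median scaling) and PDGFRB fell, and the summed signal was 32145 to 44166, 28236 to 36217 and 28248 to 49196. THY1 (12254 to 33070) and COL1A1 (6642 to 9908) made up most of this sum, so it does not follow the dimmer markers. Each summed signal is weighted by its brightest probes. The part of these markers in the results was not tested.

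Over the 19 arrays, 4 of the 5 genes that make and modify the fatty acid fell, and none of the 4 genes that assemble and store triglyceride did. ACLY, ACACA, FASN and ELOVL6 fell, SCD, LPIN1 and DGAT1 rose, and DGAT2 and PLIN2 had no slope that passed the test (limma slope of log2 signal on hours, Benjamini-Hochberg adjusted p under 0.05 over all probes with 5 or more arrays well above background). For comparison, 24.6% of the 16693 genes tested rose and 29.8% fell by the same rule, so that 3 rising and 4 falling genes among 9 are near the shares of all genes. LPIN1 was 3.93-fold higher at 60 to 72 h than at 3 to 6 h and ACLY 2.15-fold lower, the largest changes of the 9 at this scaling; with spike-in scaling those of ACLY (-1.75 on the log2 scale) and ACACA (-1.34) were larger than that of LPIN1 (1.33). With array median scaling 1 of the 9 rose (10.6% of all genes) and 4 fell (44.5%), and with spike-in scaling the counts were also 1 (3.59%) and 4 (44.5%). The median change of the 9 genes was -0.06 (log2), beside -0.05 over all genes tested. The scaling of the arrays moves all changes together: the median change of all genes was -0.42 when each array was scaled to its median and -0.69 when it was scaled to the spike-in RNA, RNA of known amount that is mixed into each sample. Relative to the median gene, the change was -1.05 for ACLY, -0.65 for ACACA, -0.50 for FASN, -0.57 for ELOVL6, 0.42 for SCD, 2.03 for LPIN1, 0.50 for DGAT1, 0.83 for DGAT2 and -0.01 for PLIN2, the same by construction under these 3 scalings, which shift each array by 1 constant. With normexp and quantile normalization, which do not, it was -0.36 for ACACA, -0.28 for FASN, 0.40 for DGAT2 and 0.19 for PLIN2. Since each time has 1 array, the error is the scatter of arrays around a line, and 19 arrays set the limit to that precision.

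**Figure D1:**
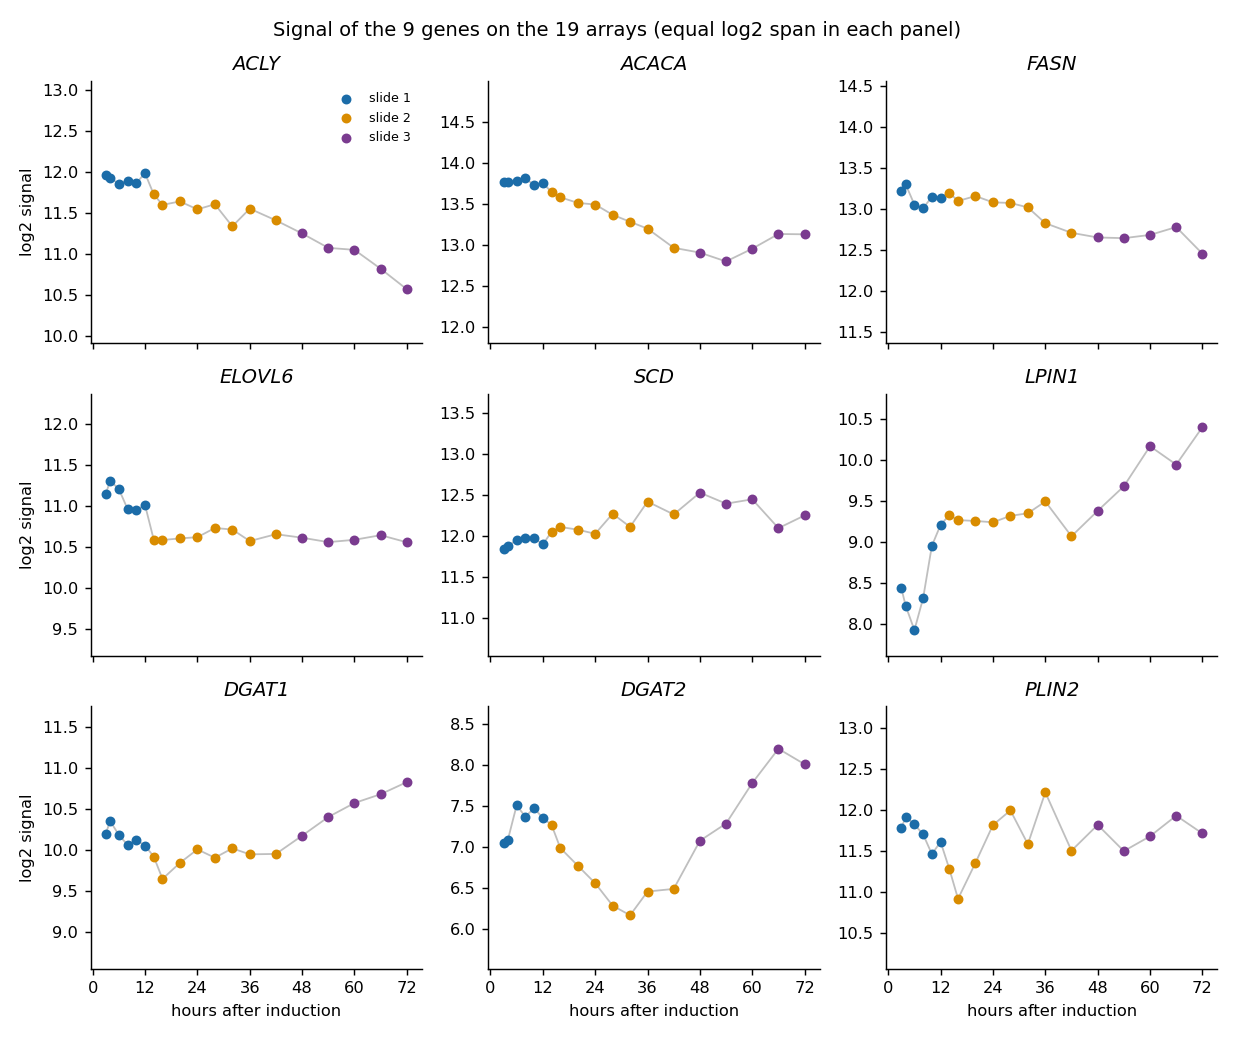
Signal (log2 intensity at a common 75th percentile) of each of the 9 genes against hours after induction, 1 point for each of the 19 arrays, coloured by slide, with an equal log2 span in every panel. ACLY declined to its lowest signal at 72 h, ACACA was lowest at 54 h, LPIN1 went from its lowest at 6 h to its highest at 72 h, and DGAT2 was lowest at 32 h.

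ACLY (NM_001096), the enzyme that supplies acetyl-CoA, fell. Its signal was 3720 to 4057 (median 3856) on the 6 arrays from 3 to 12 h and 2591 to 3395 (median 3058) on the 8 arrays from 14 to 42 h. On the last 5 arrays, in order of time, it was 2439, 2160, 2124, 1810 and 1522. The signals of the 3 slides did not overlap, and each array of the third was lower than the one before it. The slope was -0.0178 log2 per hour, its standard error 0.0013 (limma, adjusted p = 4.9e-09). It was -0.0148 when the slide was entered as a block (standard error 0.0035, adjusted p = 0.017), and ACLY was 1 of 2 genes of the 9 that passed this test, in which 5.97% of all genes fell and 4.12% rose.

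ACACA (NM_198839), the rate-limiting enzyme of the pathway, fell to 54 h and was higher again at 66 and 72 h relative to the 75th percentile, a turn that was lost with spike-in scaling, where the slope from 48 to 72 h was -0.0381 (limma adjusted p = 0.0105). It held between 13582 and 14363 from 3 to 12 h. From there it went down on every array of the second slide, from 12814 at 14 h over 12248, 11677, 11517, 10559, 9953 and 9392 to 7989 at 42 h. On the third slide it was 7670, 7118, 7929, 8978 and 8954 in turn, with the lowest signal at 54 h. All arrays of the second slide were below all arrays of the first, and the last 2 arrays were above that of 42 h. The slope over all arrays was -0.0140 (standard error 0.0018, adjusted p = 2.7e-06 by limma) and it did not pass with the slide as a block (-0.0098, adjusted p = 0.199). A second and dimmer probe of the same transcript had a slope of -0.0073 with an adjusted p of 0.057.

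FASN (NM_004104), the enzyme that makes palmitate, changed less. Its signal was 8243 to 10073 (median 9039) on the first slide and 6689 to 9372 (median 8633) on the second, and these ranges overlapped. From 48 to 72 h it was 6432, 6394, 6572, 7023 and 5607, so that 4 of these 5 arrays lay below the lowest array before 48 h. FASN was 1.47-fold lower at 60 to 72 h than at 3 to 6 h. The slope was -0.0100 (standard error 0.0013, adjusted p = 4.5e-06 by limma) and hardly differed with the slide as a block (-0.0119, standard error 0.0035, adjusted p = 0.042).

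ELOVL6 (NM_024090), the elongase, fell, and its low signals were reached by 14 h. It was highest at 4 h, at 2526, and 1972 to 2526 (median 2159) over the first slide. From 14 h to 72 h its 13 signals lay between 1503 and 1695, all below every array of the first slide. The step between 12 and 14 h, from 2057 to 1536, is also the step from the first slide to the second. The slope was -0.0077 (standard error 0.0020, adjusted p = 0.0031 by limma) and was lost with the slide as a block (-0.00042, adjusted p = 0.955).

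SCD (NM_005063), the desaturase, was the gene of fatty acid synthesis that rose. Its signal was 3665 to 4033 (median 3886) from 3 to 12 h and 4167 to 5472 (median 4417) from 14 to 42 h, without overlap. From 48 h on it was 5903, 5378, 5580, 4372 and 4869, so the highest signal was at 48 h, and the arrays at 54, 66 and 72 h lay within the range of the second slide. The late over early fold was 1.30. The slope of 0.0070 (standard error 0.0016, adjusted p = 0.0013 by limma) was lost with the slide as a block (0.0019, adjusted p = 0.821) and with array median scaling (0.0018), and turned to -0.0014 (adjusted p = 0.826) with spike-in scaling.

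LPIN1 (NM_145693), which encodes lipin 1, had the largest rise. The 6 arrays of the first slide gave 347, 298, 243, 319, 496 and 592, with the lowest signal of the series at 6 h. On the second slide it was 537 to 721 (median 627). The third slide gave 666, 820, 1151, 985 and 1352, the last being the highest of all. The signal thus went up between 6 and 12 h, was level to 48 h, and went up again to 72 h, where the last stretch turned with spike-in scaling (-0.0127 log2 per hour). The step from 8 to 10 h, 1.56-fold within a slide, was larger in size than that of 98.7% of the 13967 genes well above background on all arrays. The slope was 0.0248 (standard error 0.0035, adjusted p = 9.7e-06 by limma), it was positive and passed under spike-in scaling too (0.0163), and it did not pass with the slide as a block (0.0175, standard error 0.0093, adjusted p = 0.249). Another LPIN1 probe was well above background on 0 arrays.

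DGAT1 (NM_012079), one of the enzymes of the last step, dipped and then rose. It was 1066 to 1312 (median 1141) on the first slide and 804 to 1041 (median 980) on the second, without overlap. On the third it rose on each array, with signals of 1158, 1357, 1527, 1645 and 1822. The last 4 of these were above every earlier array. The slope over all arrays was 0.0085 (standard error 0.0025, adjusted p = 0.0087 by limma), and it rested on the end of the series, with an adjusted p of 0.0599 without the 72 h array and a slope of 0.0006 (adjusted p = 0.89) from 3 to 54 h. It was not called with the slide as a block (0.0113, adjusted p = 0.105), with array median scaling (0.0032) or with spike-in scaling, which left it at 3.58e-05. A second, dimmer DGAT1 probe gave -9.1e-06 (adjusted p = 0.998).

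DGAT2 (NM_032564), the other enzyme of that step, followed a deeper curve. The late minus early change of DGAT2 was 0.78 (log2) at this scaling. It was 0.41 with array median scaling, 0.14 with spike-in scaling and 0.36 with normexp. With spike-in scaling the slope of DGAT2 from 48 to 72 h turned negative. Its signal was 132 to 182 (median 165) on the first slide. It then went from 155 at 14 h over 127, 110, 94, 78 and 72 to 88 at 36 h and 90 at 42 h. From 48 to 72 h the signals were 135, 156, 220, 294 and 258. At this scaling the last 3 arrays were above every earlier array, and those from 24 to 42 h were below every other one. A straight line could not describe this: the slope was 0.0080 with an adjusted p of 0.236 by limma, while a cubic polynomial in hours passed the test (moderated F of 15.4, adjusted p = 0.00013, and adjusted p = 0.032 with the slide as a block). The Agilent software's own error for this spot was 10.2% to 14.7% of its signal, against about 10.0% to 10.3% for the spots of the other 8 genes.

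PLIN2 (NM_001122), the droplet coat protein, moved up and down, with a late minus early change of -0.06 (log2) at this scaling, -0.43 with array median and -0.71 with spike-in scaling. It was 2813 to 3855 (median 3409) on the first slide, was lowest, at 1927, at 16 h, and was 2613, 3596, 4070, 3060, 4740 and 2895 at 20, 24, 28, 32, 36 and 42 h. On the third slide it was 2885 to 3893 (median 3349). The highest signal, at 36 h, stood next to low ones: the step up from 32 h was 1.55-fold and the step down to 42 h 1.64-fold, larger than those of 98.6% and 96.7% of genes. Neither the slope (0.0024, 95% interval -0.0040 to 0.0088, adjusted p = 0.531) nor the cubic polynomial (adjusted p = 0.557) passed by limma. The cubic polynomial called each of the 9 genes but PLIN2, where 79.6% of all genes were called. With the slide as a block, 4 of the 9 were still called by the cubic polynomial (ACLY, ACACA, DGAT1 and DGAT2), where 36.1% of all genes were.

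Within a slide, time is free of the step from slide to slide. On the first slide (3 to 12 h) 1 of the 9 genes was called, LPIN1, which rose at 0.105 log2 per hour (adjusted p = 0.049 by limma, standard error 0.028), where 5.42% of all genes were called. This call was lost with array median scaling (0.0946, adjusted p = 0.11) and with spike-in scaling (0.0969, adjusted p = 0.602). ELOVL6 had a slope of -0.0319 there, with an adjusted p of 0.132. On the second slide (14 to 42 h) ACACA fell at -0.0226 (adjusted p = 0.00052), FASN at -0.0157 (adjusted p = 0.019) and DGAT2 at -0.0286 (adjusted p = 0.027), where 18.7% of all genes were called. None of the 9 rose there at this scaling, but with normexp SCD (0.0188, adjusted p = 0.0086) and PLIN2 (0.0293, adjusted p = 0.042) did and FASN was not called (adjusted p = 0.089), and with spike-in scaling the 3 falls kept their sign but were not called (adjusted p = 0.079 for ACACA, 0.173 for FASN and 0.085 for DGAT2).

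On the third slide (48 to 72 h) 5 of the 9 genes were called, where 23.5% of all genes were. ACLY fell at -0.0269 (limma adjusted p = 0.0014), and ACACA, LPIN1, DGAT1 and DGAT2 rose, at 0.0130 (adjusted p = 0.033), 0.0384 (adjusted p = 0.031), 0.0264 (adjusted p = 0.0027) and 0.0463 (adjusted p = 0.0091). The direction of these 4 rises holds relative to the 75th percentile: with spike-in scaling the slopes were -0.0381 (adjusted p = 0.0105), -0.0127, -0.0247 and -0.0049. With array median scaling the slopes of ACACA (0.0057, adjusted p = 0.434) and LPIN1 (0.0311, adjusted p = 0.109) were not called. The spike-in signal itself was higher on the arrays at 66 and 72 h (14.1 on the log2 scale on each) than at 48 h (13.5) and 54 h (13.4). The 3 genes of triglyceride assembly, LPIN1, DGAT1 and DGAT2, therefore rose together from 48 to 72 h at the 75th percentile scaling, while ACLY fell. Between the second slide and the third, the slope of 4 of the 9 genes differed by a test of the difference itself, upwards for ACACA, DGAT1 and DGAT2 and downwards for SCD, where 21.5% of all genes differed. With spike-in scaling none of these upward differences was called. Between the first slide and the second none of the 9 passed that test, where 5.79% of all genes did, and LPIN1 had an adjusted p of 0.054 by limma.

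**Figure D2:**
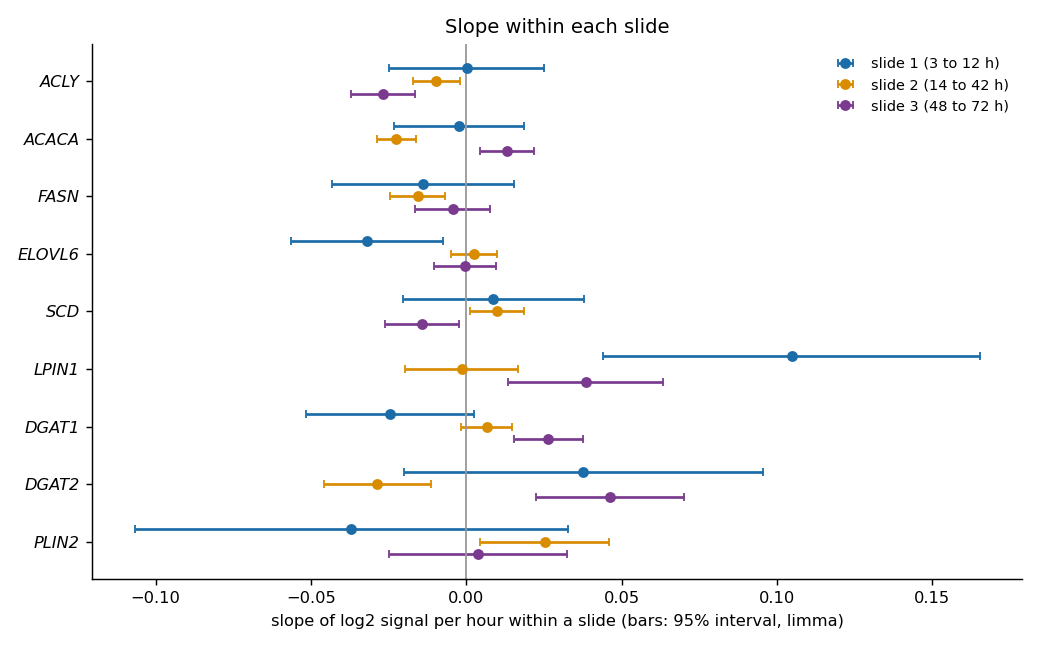
Slope of log2 signal per hour fitted within each slide for each of the 9 genes, with 95% intervals from limma. ACACA and DGAT2 had slopes below 0 on the second slide and above 0 on the third, and LPIN1 rose on the first slide and on the third but was not called on the second.

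The genes whose profiles lay nearest to each of the 9, by the root mean square difference of log2 signals centred on their own mean over 19 arrays, were sought among 13958 other genes well above background on all arrays. For ACLY they were HMGN3 (0.083) and AZIN1 (0.090), for ACACA ACTR3 (0.074) and POLE4 (0.075), for FASN PDZD11 (0.073) and ACTR1A (0.074), and for ELOVL6 ARG2 (0.086) and STRBP (0.090). For SCD they were HADHA (0.084), a subunit of the mitochondrial trifunctional protein of fatty acid oxidation, and TVP23C (0.085), and for DGAT1 ARL2 (0.063) and DTNBP1 (0.089). SPINK5 (0.230) and SEC31B (0.257) were nearest to LPIN1, and SCT (0.230) and PYCARD (0.243) to DGAT2, the genes of the 9 that themselves varied most (SD of 0.64 and 0.56 over the arrays), with which this difference grows. For PLIN2 they were RAB38 (0.117) and PLEKHA2 (0.123). Among the 9 genes themselves, ACACA and FASN were nearest to each other (0.175), whereas ACLY differed from ACACA by 0.223 and DGAT1 and DGAT2 differed by 0.388. All profiles share the arrays and the slides, so these distances are a description.

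RefSeq promoter windows (GRCh38.p14, 250 bases before to 50 after a transcript start) were at hand for 6 of the 9 genes: ACLY, ACACA, ELOVL6, SCD, LPIN1 and PLIN2, with 11 windows in all. They are described because ACLY and ACACA fell while SCD, another lipogenic enzyme, rose. The rise of SCD was lost with array median scaling, with spike-in scaling and with the slide as a block. Its late minus early change was -0.27 with spike-in scaling, the same sign as ACLY (-1.75), and 0.59 with normexp. On both strands, the sterol regulatory element TCACNCCAC was in 0 of the 11 windows (1.13% of 35116 windows held it), the E-box CACGTG in 1 (7.26%), the CCAAT box CCAAT in 5 (34.6%), and neither DR1 nor DR4, pairs of AGGTCA half-sites 1 or 4 bases apart to which PPAR and LXR bind, was in any of them (0.0228% and 0.0199%). The ACLY windows among the 5 with CCAAT overlap and hold the same boxes, so that 1 ACLY region is counted more than once. A match is not a shown binding site, and a missing match says only that these letters are not in the window. SCD and ACLY each held 2 CCAAT boxes, shown in capitals (ATTGG is CCAAT on the other strand). PLIN2 held the E-box, also in capitals. ACACA, not printed, held CCAAT in 2 of its 3 windows, at 226 bases before the start in one and at 155 and 136 bases in the other. The 3 stretches are SCD at chr10:100346993-100347062 on the plus strand, ACLY at chr17:41919031-41919097 on the minus strand and PLIN2 at chr9:19127534-19127583 on the minus strand, each upstream of its transcript start.
SCD: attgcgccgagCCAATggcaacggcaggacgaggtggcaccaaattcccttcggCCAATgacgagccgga
ACLY: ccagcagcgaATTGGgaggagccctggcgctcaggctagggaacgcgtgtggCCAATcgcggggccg
PLIN2: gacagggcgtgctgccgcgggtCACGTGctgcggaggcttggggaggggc

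The other genes of the pathway were grouped by step, beside 24.6% rising and 29.8% falling among all genes. Of 11 genes tested that supply acetyl-CoA, malonyl-CoA and NADPH or tune ACACA, 0 rose and 4 fell, and the median change was -0.27. The largest falls were those of IDH1, the cytosolic NADP-dependent isocitrate dehydrogenase (17278 to 8650, 2.00-fold lower), ME1, the malic enzyme (106 to 70.3, -0.60), and PGD of the pentose phosphate pathway (15907 to 10909, -0.54). The fourth, MID1IP1, which promotes the polymerisation of ACACA, changed by -0.26. These genes were named as the called falls, so a direction shared with ACLY, ACACA and FASN was set by that choice. The fall of MID1IP1 was not called with normexp (slope -0.0013, limma adjusted p = 0.659). ME1 was well above background on 2 of the 3 latest arrays. With the slide as a block 1 gene of this group, IDH1, was still called.

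Among 20 genes of elongation, desaturation and acyl-CoA activation, 4 rose and 8 fell, with a median change of -0.41. FADS2, the delta-6 desaturase of polyunsaturated fatty acids, fell from 17893 to 7109 (-1.33, limma adjusted p = 3.5e-10), ELOVL2, an elongase of these long chains, from 106 to 42.3 (-1.33), and HACD1, a dehydratase of the elongation cycle, from 3273 to 1470 (-1.15). ACSL5, which activates fatty acids to acyl-CoA, rose from 161 to 538 (1.74), as did the elongases ELOVL3 (25.3 to 48.4, 0.94) and ELOVL4 (558 to 714, 0.36), of which ELOVL3 was well above background on 8 arrays. SCD5, the other human desaturase of the SCD family, fell by 0.63 but was dim, at 22.9 to 59.9 and well above background on 13 arrays. The rise of SCD itself was lost with array median and spike-in scaling. The slope of ELOVL4 turned with spike-in scaling (-0.0015 log2 per hour), whereas those of ELOVL3 (0.0150) and ACSL5 (0.0155) did not. With the slide as a block ACSL5 still rose and FADS2 and HACD1 still fell, and the other 9 calls were lost.

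In glycerolipid assembly 5 of 18 genes rose and 2 fell, and the median change was 0.05. MOGAT3, a monoacylglycerol acyltransferase, rose from 76.2 to 134 (0.82), GK, glycerol kinase, from 71.6 to 116 (0.70), and GPAT2, a glycerol-3-phosphate acyltransferase, from 493 to 788 (0.68), although GPAT2 had a slope of -0.0007 with spike-in scaling. GPAT3 fell from 667 to 391 (-0.77) and AGPAT1 from 6845 to 4510 (-0.60), so the acyltransferases of the first steps moved in different directions. With array median scaling 1 gene of this group, MOGAT3, rose and 7 fell (10.6% and 44.5% of all genes). With spike-in scaling 0 rose and 7 fell (3.59% and 44.5% of all genes). No gene of the group was called with the slide as a block.

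Of 9 lipid droplet genes tested, 1 rose and 3 fell. CIDEB fell from 379 to 177 (2.14-fold), BSCL2, which encodes seipin, from 3380 to 2591 (-0.38) and CIDEC from 731 to 581 (-0.33), and FITM1 rose by its slope (limma adjusted p = 0.00038), though it was well above background on 10 arrays, 1 of them among the 3 latest, and was not called with spike-in scaling (adjusted p = 0.089). No call of this list held with the slide as a block. Of 8 lipolysis genes, PNPLA2, the adipose triglyceride lipase, rose from 8856 to 12176 (0.46, with a slope of -0.0020 under spike-in scaling), while PNPLA3 fell from 3924 to 2440 (-0.69), ABHD5, the activator of PNPLA2, from 2076 to 1320 (-0.65), and LIPA, the lysosomal acid lipase, from 3502 to 2616 (-0.42), and PNPLA3 alone was called with the slide as a block. Of 11 genes of fatty acid uptake and carriage, 2 rose and 4 fell. FABP7 fell from 532 to 141 (-1.91), SLC27A2 from 522 to 307 (-0.77), DBI from 52813 to 31455 (-0.75) and FABP5 by 0.74, and FABP3 rose from 634 to 1393 (1.14) and SLC27A1 by 0.33 (with -0.0022 log2 per hour under spike-in scaling). In that list FABP7, DBI, FABP5 and FABP3 were still called with the slide as a block. Of 20 genes of fatty acid oxidation, 2 rose (ACADS by 0.55 and HADHA by 0.28, the latter at -0.0014 under spike-in scaling) and 8 fell, the most CPT2 (-0.83), ACAA2 (-0.53) and ECI2 (-0.47), and with the slide as a block none of these 10 calls held. Of 11 housekeeping genes, 3 rose (B2M by 0.81, GAPDH by 0.53 and PGK1 by 0.39) and 5 fell (HPRT1 by 0.83, YWHAZ by 0.44, TBP by 0.34, PPIA by 0.30 and ACTB by 0.23). With spike-in scaling 0 rose and 6 fell (3.59% and 44.5% of all genes), with GAPDH and PGK1 at slopes just below 0. B2M alone was called with the slide as a block.

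Among 19 regulators of lipogenesis 6 rose and 5 fell, where 24.6% of all genes rose and 29.8% fell. With array median scaling 2 rose and 9 fell (10.6% and 44.5% of all genes), and with spike-in scaling 1 and 8 (3.59% and 44.5%). None was called with the slide as a block. SREBF1 was 14989 to 17946 on the first slide, 11678 to 15800 on the second, and 13873, 13079, 12060, 7295 and 9077 on the third in order of time. It fell by 0.76 over the series (limma adjusted p = 8.4e-05), and its lowest arrays were those at 66 and 72 h. DGAT2 was highest at 66 h and DGAT1 and LPIN1 at 72 h. SREBF2, its paralogue of sterol synthesis, fell by 0.25, MBTPS1, the site-1 protease that cleaves SREBPs, by 0.42, and USF1 and USF2, E-box factors, by 0.73 and 0.50. MLXIPL rose from 476 to 1023 (2.15-fold, adjusted p = 2.5e-06) and was highest, at 1365, at 72 h, and it kept a positive slope with spike-in scaling (0.0093, adjusted p = 0.056). MBTPS2, the site-2 protease, rose by 0.55, NR1H3, the liver X receptor alpha, from 2333 to 3190 (0.45, turning to -0.0009 log2 per hour under spike-in scaling), PPARA by 0.24 and CEBPA by 0.19. None of MBTPS2, NR1H3, PPARA and CEBPA was called with array median or spike-in scaling. The spike-in slopes were 0.0007 for MBTPS2, 0.0063 for PPARA and 0.0024 for CEBPA.

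PPARG, the master regulator of adipocytes, was dim. It was well above background on 7 arrays, on 0 of the 3 from 3 to 6 h and 2 of the 3 from 60 to 72 h. PPARG thus passed the filter only through arrays after 6 h. Its slope (0.0244 log2 per hour, 0.0045 with normexp) rests on early signals near the background. The mean late signal was 2.03-fold above an early limit. On each early array this limit is the lowest signal called well above background, or PPARG's own signal where that was higher. INSIG2, which holds the SREBP complex in the endoplasmic reticulum, passed no slope test (adjusted p = 0.22) but had a wide peak, from 811 at 6 h to 4807, 5468, 3714 and 6744 on the arrays from 24 to 36 h, then 1849 at 42 h. PLIN2 had its highest signal at 36 h too, and also stepped down at 42 h. The same held for LPL (355 to 162) and the housekeeping gene PGK1 (109417 to 83993). Each time is 1 array, so a shared step is a description only. INSIG1, a known target of SREBPs, was low on the arrays from 42 to 54 h (396, 386 and 427) and reached 2062 at 60 h, and its slope was not called (adjusted p = 0.133). SCAP, MLX, NR1H2, PPARD, CEBPB and RXRA were not called either, with changes of 0.00, -0.03, -0.25, 0.06, -0.66 and -0.41.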

How the data were processed

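The authors deposited, for each of the 19 arrays, the Agilent Feature Extraction output (version 10.10.1.1 in the submitters' processing notes), whose processed signal is a background-subtracted intensity not scaled between arrays. The deposited flags, scored 0 or 1 per spot, mark outliers, saturation and spots well above background. The authors also deposited a table of these intensities multiplied by 1 factor per array, used here as an alternative. From these files, flagged spots (0.632%, 232 to 814 per array) were left out, no spot was saturated, copies of a probe were averaged (median CV of copies 3.57% to 4.86%), and log2 intensity minus the array's 75th percentile was used. Of 50683 probes, 28174 were named through RefSeq accessions (GRCh38.p14 annotation), and a gene was represented by its brightest probe. Slopes on hours, cubic polynomials and within-slide slopes were modelled in R 4.3.3 by limma 3.58.1 (lmFit, eBayes) and adjusted by Benjamini-Hochberg; tables and figures used Python 3.11.15 with pandas 2.3.3, numpy 2.4.6 and matplotlib 3.10.9. On simulated data for the slope on hours, 183 of 200 changed probes among 31997 were recovered, with 10 false calls. The simulated slopes were 0.02 (85 recovered) and 0.04 (98 recovered). Among the called slopes of the genes examined here, that of LPIN1 alone was larger in size than 0.02. Recovery of smaller slopes, such as 0.0070 for SCD, was not tested. In the data 24.6% of genes rose and 29.8% fell, far more than in the simulation. The simulated counts are therefore not read as error rates of the calls made here. Early and late means cover 3, 4 and 6 h, and 60, 66 and 72 h, which are different times and not replicates.

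Named genes are the 9 genes, up to 3 called genes with the largest rise and fall of each list, all regulators, and the 2 nearest profiles. MID1IP1, SCD5, FABP5, LPL and some marker and housekeeping genes outside this rule were named after their values were seen. The 9 genes and the lists were chosen with earlier results of these data known. The alternatives were array median and spike-in scaling (7 of 10 spike-in levels), no filter, normexp (offset 50) followed by quantile normalization, the authors' deposited table, a filter on 19 arrays, the slide as a block, log2 hours, 3 to 54 h, the mean of a gene's probes, and each array left out. Differences of slopes between slides were added after seeing the data.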

Additional observations from a re-analysis of the deposited data

Results flagged for a closer look

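The slope of 4 genes differed between the second slide (14 to 42 h) and the third (48 to 72 h) by a limma contrast added after seeing the data, in which 21.5% of all genes were called. The difference, the third slide minus the second, was 0.0749 log2 per hour for DGAT2 (standard error 0.0138, adjusted p = 0.0023), from a slope of -0.0286 to one of 0.0463. For ACACA it was 0.0356 (standard error 0.0050, adjusted p = 0.00035), from -0.0226 to 0.0130, and for DGAT1 0.0199 (standard error 0.0065, adjusted p = 0.044), from 0.0065 to 0.0264. SCD went the other way, with -0.0241 (standard error 0.0070, adjusted p = 0.026), from 0.0099 to -0.0142. The spike-in signal was highest at 66 and 72 h, and with spike-in scaling the difference turned to -0.0066 for ACACA and -0.0223 for DGAT1. At that scaling no upward difference was called, that of DGAT2 included. None of the 9 genes passed the contrast of the second slide with the first, where 5.79% of all genes were called.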

How the results depend on the processing

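No paired analysis was possible because no time has more than 1 array. Of the slopes on hours, 3 rose and 4 fell; 1 rose with array median or spike-in scaling, 0 rose and 2 fell with the slide as a block, and 2 to 3 rose and 4 fell with single arrays left out. DGAT1 was not called with log2 hours (adjusted p = 0.227 by limma) or the mean of its probes (adjusted p = 0.052). The cubic polynomial called 4 genes with the slide as a block and 8 whichever array was left out. Slopes on hours that turned were, with spike-in scaling, SCD (-0.0014), DGAT2 (-0.00049) and PLIN2 (-0.0061), with array median scaling PLIN2 (-0.0029), with the slide as a block DGAT2 (-0.00042), and from 3 to 54 h DGAT2 (-0.0119). The median late minus early change of the 9 genes was -0.435 with array median scaling, -0.71 with spike-in scaling and 0.15 with normexp, and SCD (-0.27) and DGAT1 (-0.20) turned with spike-in scaling. Over all genes 4101 rose and 4979 fell (45.2% of calls rising), 1771 and 7426 with array median scaling (19.3%), 599 and 7435 with spike-in scaling (7.46%), and 3765 and 4349 with normexp (46.4%).
Within slides, the number rising on the first was 0 with array median and spike-in scaling. The second had 2 rising with normexp and 0 falling with spike-in scaling. The third had 2 rising and 2 falling with array median scaling, and 0 and 6 with spike-in scaling. The shares of all genes at these settings, and at those of the slope differences below, are not given here. The counts are therefore not read as particular to the 9 genes. Over all 19 arrays 44.5% of all genes fell with spike-in scaling. Slopes on the first slide turned for ACLY (-0.0099 with array median, -0.0076 with spike-in scaling), ACACA (0.0077 with normexp) and SCD (-0.0014 with array median scaling). On the second they turned for ELOVL6 (-0.0066 with spike-in scaling, -0.0026 with normexp), LPIN1 (0.0014 with normexp) and DGAT1 (-0.0025 with spike-in scaling). On the third they turned with spike-in scaling for ACACA (-0.0381), LPIN1 (-0.0127), DGAT1 (-0.0247), DGAT2 (-0.0049) and PLIN2 (-0.0474), with array median scaling for PLIN2 (-0.0036) and with normexp for ELOVL6 (0.00015). For the third slide minus the second, 0 rose and 4 fell with spike-in scaling and 2 fell with the filter on 19 arrays. ACACA (-0.0066), FASN (-0.0308), LPIN1 (-0.0023) and DGAT1 (-0.0223) turned with spike-in scaling, and ELOVL6 (0.0028) with normexp. For the second minus the first, 1 fell with the filter on 19 arrays, and FASN (0.0064, array median) and SCD (-9.03e-05, spike-in) turned. The cause was not tested. Dim probes (PPARG, ELOVL3, FITM1, SCD5) are limited by the background.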
